A study of Rattus norvegicus with 63 samples.

Results

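Livers of 3 rats treated for 3 days with piperonylbutoxide (PBO), an insecticide synergist that blocks cytochrome P450 enzymes, were compared with the livers of 3 rats of methylcellulose control set 5. These 6 animals, taken by compound and control set number from the sample labels, belong to a series of 63 rats in 21 groups of 3. All were male Wistar Hanover rats, assigned to dose groups at 8 to 10 weeks of age and dosed by gavage. PBO was given at 1200 mg/kg per day for 3 days. The labels of set 5 give methylcellulose for 14 days, whereas the study's methods name carboxymethyl cellulose as the vehicle of PBO and speak of time-matched controls. By the labels, therefore, compound and dosing time cannot be told apart in this comparison. Diethylstilbestrol (DES, 10 mg/kg per day, same control set) and Wy-14643 (Wy, 60 mg/kg per day, control set 1) were the other compounds given for 3 days, and served as treated groups of equal duration. According to the methods, 3 of 5 rats of a dose group were profiled, chosen for at least some liver histopathology. Each animal contributed 1 liver lysate, adjusted to equal protein concentration and measured on reverse-phase protein arrays, whose 158 analytes comprise 104 total proteins and 54 modified forms. The value is a relative fluorescence intensity (RFI), a level on a linear scale that cannot be compared between antibodies.

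PBO belongs to the compounds that enlarge the rodent liver and raise its drug-metabolizing enzymes. Cytochromes P450 (CYP) are membrane-bound oxidases of the hepatocyte, and POR, the P450 oxidoreductase, passes them their electrons. Their genes are switched on by nuclear receptors that sense foreign chemicals: the pregnane X receptor (PXR) chiefly drives CYP3A genes, the constitutive androstane receptor (CAR) drives CYP2B genes, and the aryl hydrocarbon receptor drives CYP1A genes. Phenobarbital (PB) is the textbook inducer of CYP2B and cyproterone acetate (CPA) a textbook inducer of rat CYP3A. The antibodies carry human-style symbols with a number where several share a symbol (CYP3A4_2), and which rat protein each bound is not given in the sources used here.

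The promoters of 2 rat Cyp3a genes are shown because the largest fold change of the PBO livers came from an antibody named for this subfamily. RefSeq windows of GRCr8 run from 250 bases before an annotated start to 50 bases after it. A direct repeat, 2 copies of AGTTCA in the same orientation with any 3 bases between them, was searched on both strands of all 33469 windows. It is a form of the element that PXR binds with its partner RXR. It was found in 2 of them, or 0.00598%, which are those of Cyp3a23-3a1 (chr12:14398754-14399053, minus strand) and Cyp3a2 (chr12:14343808-14344107, minus strand). The repeat lies on the strand opposite to the gene, and its letters as read along the gene are in capitals, at positions -144 to -130 from the start of Cyp3a23-3a1 and -131 to -117 from that of Cyp3a2:
Cyp3a23-3a1: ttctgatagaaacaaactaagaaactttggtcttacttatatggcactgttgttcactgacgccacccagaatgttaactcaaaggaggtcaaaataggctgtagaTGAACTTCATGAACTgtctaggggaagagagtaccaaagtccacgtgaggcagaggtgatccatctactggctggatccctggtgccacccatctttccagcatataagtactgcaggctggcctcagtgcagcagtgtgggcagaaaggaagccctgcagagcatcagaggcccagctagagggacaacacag
Cyp3a2: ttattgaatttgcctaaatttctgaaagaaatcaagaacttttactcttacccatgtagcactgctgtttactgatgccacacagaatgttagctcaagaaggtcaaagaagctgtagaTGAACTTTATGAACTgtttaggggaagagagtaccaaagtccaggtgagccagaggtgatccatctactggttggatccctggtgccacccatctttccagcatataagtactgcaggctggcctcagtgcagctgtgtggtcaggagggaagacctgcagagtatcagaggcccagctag
The windows of other Cyp3a genes, among them Cyp3a9, Cyp3a18 and Cyp3a62, and those of Por, Cyp1a2, Cyp2b1 and Cyp2b2 did not hold these letters. This says nothing of other elements or of more distant sites. A match is a description of the sequence and no measurement of receptor binding.

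Control sets and single animals bear on all results below. The 4 methylcellulose sets hold 12 animals. Set 5 against set 1 and against set 2 gave 0 called analytes each by limma (adjusted p below 0.05), with 0 at an unadjusted p below 0.05. Against set 6 it gave 1 called analyte (0.633%), RPS6_P-S235/S236. The deposited log2 matrix of the same animals did not follow the RFI in the same way in every column, and which control animals stand behind it is not settled here. In the matrix, the PBO columns correlated over analytes at 0.547 to 0.638 with log2 ratios computed from the RFI against set 2, and at 0.540 to 0.580 with those against set 5. The matrix columns of the set 5 animals correlated at -0.02 to 0.16 with their own log2 ratios to set 5. The columns of the set 2 and set 6 animals correlated at -0.05 to 0.13 and 0.05 to 0.19 with their own sets, and those of the set 1 animals at 0.567 to 0.813. Set 2 is thus no better settled as a reference than set 5. Values against set 2 and against all 12 animals are therefore given beside those against set 5. Among the PBO livers, animal 3 stood apart. Its log2 RFI correlated at 0.947 and 0.948 with animals 1 and 2, which correlated at 0.991 with each other, and it had the lowest RFI of the 3 animals in 135 of 158 analytes. Its median RFI was 0.489, against 0.651 and 0.714 in animals 1 and 2. The part of this lower signal in the results was not tested, and values without animal 3 are given where they differ.

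PBO livers differed from set 5 in 10 of 158 analytes (6.33%; limma on log2 RFI, adjusted p below 0.05), of which 8 were higher (5.06%) and 2 lower (1.27%). CYP3A4_2, CYP2B6_1, CYP1A2_1 and POR rose 2.81- to 37.4-fold. Smaller rises were those of phosphorylated histone H3 (HIST1H3A_P-S10), cyclin E2 (CCNE2), phosphorylated Aurora kinases (AURKA_P-T288/T232/T198) and the kinase MAP2K2. Phosphorylated ERK1 (MAPK3_P-T202/Y204) and phosphorylated ribosomal protein S6 (RPS6_P-S235/S236) fell. Taken over the whole array, the median log2 fold change was 0.15. After each animal was centred on its own median, 8 analytes were higher and 3 lower, and these held all 10 calls. Quantile normalization gave 4 higher and 6 lower and kept 6 of the 10, without POR. Leaving out PBO animal 3 turned the split to 14 higher and 0 lower. Without PBO animal 2 the number of calls was 6, and without set 5 animal 7 it was 5, in both cases with the 3 CYP signals and POR among them.

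Of the 17 analytes of the drug-metabolizing enzyme list, 4 rose, 0 fell and 13 did not pass the test. Of all 158 analytes, 8 rose (5.06%) and 2 fell (1.27%). The median log2 fold change of the list was 0.26, against 0.15 over all analytes. CYP3A4_2, named for the subfamily that oxidizes the widest range of drugs, read 38.8, 40.0 and 35.6 in PBO animals 1, 2 and 3, and 0.999, 0.881 and 1.20 in the set 5 animals. All PBO animals lay far above every control animal, the highest of the 9 animals of the other methylcellulose sets being 2.60. The log2 fold change was 5.23 ± 0.32 (SE, n = 3 and 3; limma adjusted p = 1.2e-18), or 37.4-fold. Animal 3 was the lowest of the PBO animals here too, by a small margin. In whole liver tissue, here and for all analytes below, a change in the number of cells of a type and a change in protein per cell cannot be told apart.

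CYP2B6_1, named for the CAR-driven subfamily, read 2.84, 3.53 and 3.07 in the PBO animals and 0.438, 0.371 and 0.434 in set 5. The groups were wide apart, and the other 9 control animals reached 0.560. Its log2 fold change was 2.92 ± 0.33 (SE; limma adjusted p = 1.25e-09), or 7.59-fold. CYP1A2_1, named for an enzyme that oxidizes caffeine and aromatic amines, read 4.63, 7.64 and 8.01 in the PBO animals against 1.32, 1.17 and 1.08 in set 5. Here animal 1 was the lowest and animal 3 the highest, whereas animal 3 was the highest of the 3 in only 6 of 158 analytes. The log2 fold change was 2.47 ± 0.26 (SE; limma adjusted p = 1.53e-10), or 5.54-fold. POR, the electron donor of all microsomal P450 enzymes, read 37.7, 48.5 and 25.4 in the PBO animals and 13.8, 10.8 and 14.1 in set 5. The PBO animals spread more widely for POR than for CYP3A4_2, yet the lowest of them exceeded the 21.4 of the highest of the other 9 controls. POR rose by 1.49 ± 0.25 on the log2 scale (SE; limma adjusted p = 1.43e-05), or 2.81-fold.

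**Figure D1:**
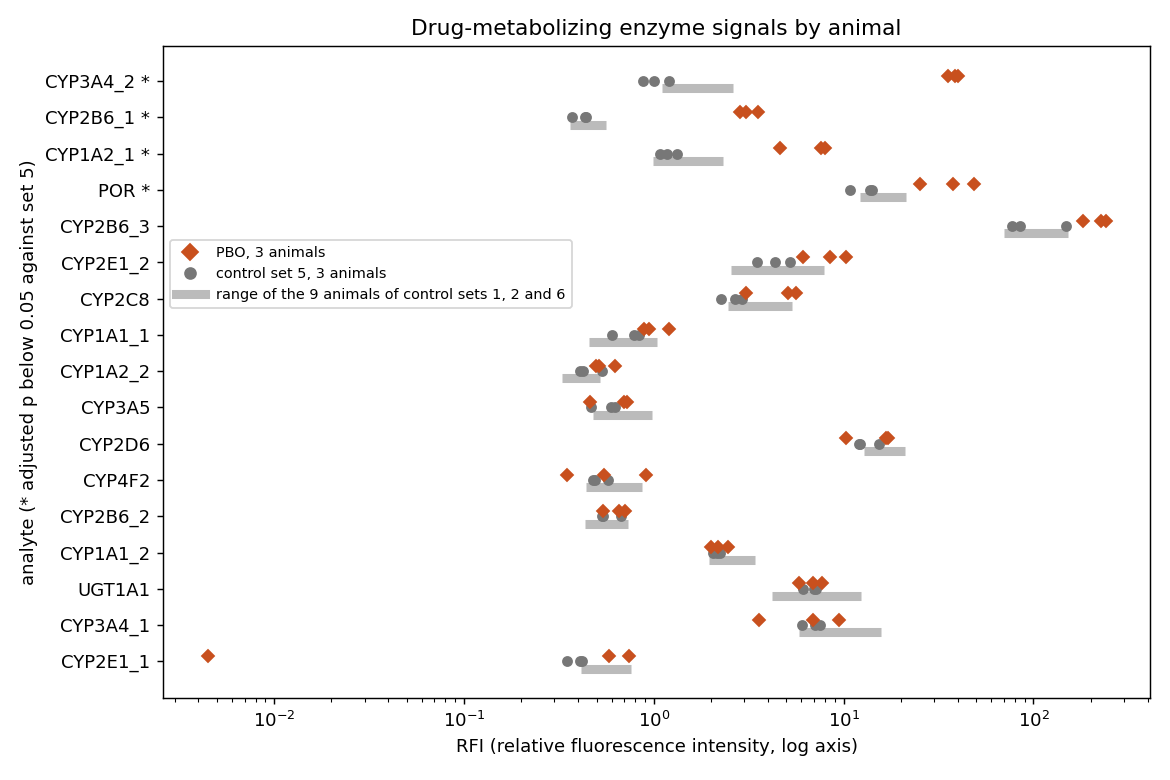
RFI (log axis) of the 17 drug-metabolizing enzyme analytes in the 3 PBO animals (diamonds) and the 3 animals of control set 5 (circles), with a grey bar for the range of the 9 animals of methylcellulose sets 1, 2 and 6. The 4 starred analytes were called at an adjusted p below 0.05, and their PBO animals lie right of every control animal, as do those of CYP2B6_3.

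These 4 rises did not depend on the reference. Against all 12 methylcellulose animals the log2 fold changes were 4.80 for CYP3A4_2, 2.88 for CYP2B6_1, 2.31 for CYP1A2_1 and 1.30 for POR, and all 4 were called. They were also called against set 1, set 2 and set 6 alone, which gave 4 (2.53%), 7 (4.43%) and 7 (4.43%) calls over all analytes. Under all 18 alternatives CYP3A4_2 stayed between 4.17 and 5.34, CYP2B6_1 between 2.65 and 2.99 and CYP1A2_1 between 1.98 and 2.72, and each remained called. POR lost its call under 1 of the 18, quantile normalization, with a log2 fold change of 0.59 (limma adjusted p = 0.300).

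Antibodies of the same symbol differed in response for some symbols. Of 11 ratios between antibodies of 1 symbol within an animal, 5 were called and 6 were not. The 6 were CYP1A1_1 to CYP1A1_2 with a log2 difference of 0.41, CYP2B6_2 to CYP2B6_3 with -0.99, RPS6_1 to RPS6_2 with -0.29 and the 3 ratios of PPARA, a lipid-sensing nuclear receptor, with -0.20 to 0.22. CYP3A4_1 read 6.94, 9.41 and 3.61 in the PBO animals and 7.48, 6.07 and 7.10 in set 5, so that the groups overlapped. The log2 difference was -0.15, with a 95% confidence interval of -0.65 to 0.35. Within each animal the ratio of CYP3A4_1 to CYP3A4_2 therefore fell by 5.38 ± 0.37 on the log2 scale (SE; limma adjusted p = 1.3e-16 over 60 ratios, 16.7% of which were called). Ratios of 2 signals in the same lysate are unaffected by any scaling of the whole animal. They were added after the values had been seen. CYP2B6_1 rose by 2.80 ± 0.34 relative to CYP2B6_2 (adjusted p = 5.04e-09) and by 1.82 ± 0.46 relative to CYP2B6_3 (adjusted p = 0.00391), both by limma on the log2 scale. CYP1A2_1 rose by 2.20 ± 0.29 relative to CYP1A2_2 (limma adjusted p = 2.01e-08). Which of these antibodies bound the enzyme of its name is not given in the sources used here.

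The third CYP2B6 antibody, CYP2B6_3, gave the brightest signal of the list, with 181, 226 and 240 in the PBO animals and 148, 85.4 and 77.5 in set 5. All PBO animals exceeded all 12 methylcellulose animals, of which the highest was 152. Against set 5 the log2 fold change was 1.11 (95% confidence interval 0.13 to 2.09, limma adjusted p = 0.192). Against all 12 animals it was 1.13 with an adjusted p of 0.0365 by limma, which is past the threshold. CYP2B6_3 was called in 2 of 18 alternatives, the other being the fit of the 6 animals alone (limma adjusted p = 0.0248). CYP2C8, named for a family that includes CAR and PXR targets, read 5.12, 5.60 and 3.05 in the PBO animals and 2.26, 2.67 and 2.91 in set 5. The PBO animals lay above set 5 but overlapped with the other 9 controls, of which the highest read 5.34, and the interval of the log2 difference was -0.06 to 1.60. For UGT1A1, the enzyme that conjugates bilirubin, the log2 difference was 0.00, with an interval of -0.73 to 0.74.

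For CYP2E1, the ethanol-oxidizing P450, the antibodies differed in PBO animal 3. CYP2E1_1 read 0.582 and 0.737 in PBO animals 1 and 2, above the 0.350 to 0.418 of set 5, and 0.00448 in animal 3. The mean log2 fold change of -1.65 (limma adjusted p = 0.215) rested on that value: without animal 3 it was 0.75 (adjusted p = 0.092 by limma). CYP2E1_2 read 6.12, 10.3 and 8.49 in the PBO animals and 5.25, 3.49 and 4.34 in set 5, with a log2 difference of 0.92 and an interval of -0.06 to 1.89. CYP2E1_2 was called in 1 of 18 alternatives, the fit of the 6 animals alone (limma adjusted p = 0.0499). The ratio of CYP2E1_1 to CYP2E1_2 passed the test with animal 3 (-2.57, limma adjusted p = 0.0209) and was -0.14 without it (adjusted p = 0.883 by limma). The log2 differences of the other analytes of the list, CYP1A1_1, CYP1A1_2, CYP1A2_2, CYP2B6_2, CYP2D6, CYP3A5 and CYP4F2, ran from 0.04 to 0.45 and none passed the test.

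Set beside the other 14 compounds, PBO had the highest mean CYP1A2_1, POR and CYP2B6_3 of all 21 groups and the second highest CYP3A4_2 and CYP2B6_1. For CYP2B6_3 single animals overlapped, with 181 to 240 in PBO, 67.7 to 249 in DES, 105 to 253 in CPA and 116 to 220 in PB. For POR, PB and CPA animals reached 32.4 and 30.8, above the lowest PBO animal at 25.4. CPA, given for 14 days in corn oil, read 41.7 to 43.3 for CYP3A4_2, above the 35.6 to 40.0 of PBO. PB, given for 14 days, read 9.32 to 11.2 for the same analyte. For CYP2B6_1 the order was different, with 3.18 to 3.81 in PB, 2.84 to 3.53 in PBO and 0.935 to 1.66 in CPA. PB and PBO overlapped for CYP2B6_1 and did not overlap for CYP3A4_2. CYP1A2_1 remained between 0.931 and 1.50 in the PB and CPA animals, where the PBO animals read 4.63 to 8.01. Doses, vehicles and durations of these groups differed, so that the values are given side by side without a test.

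**Figure D2:**
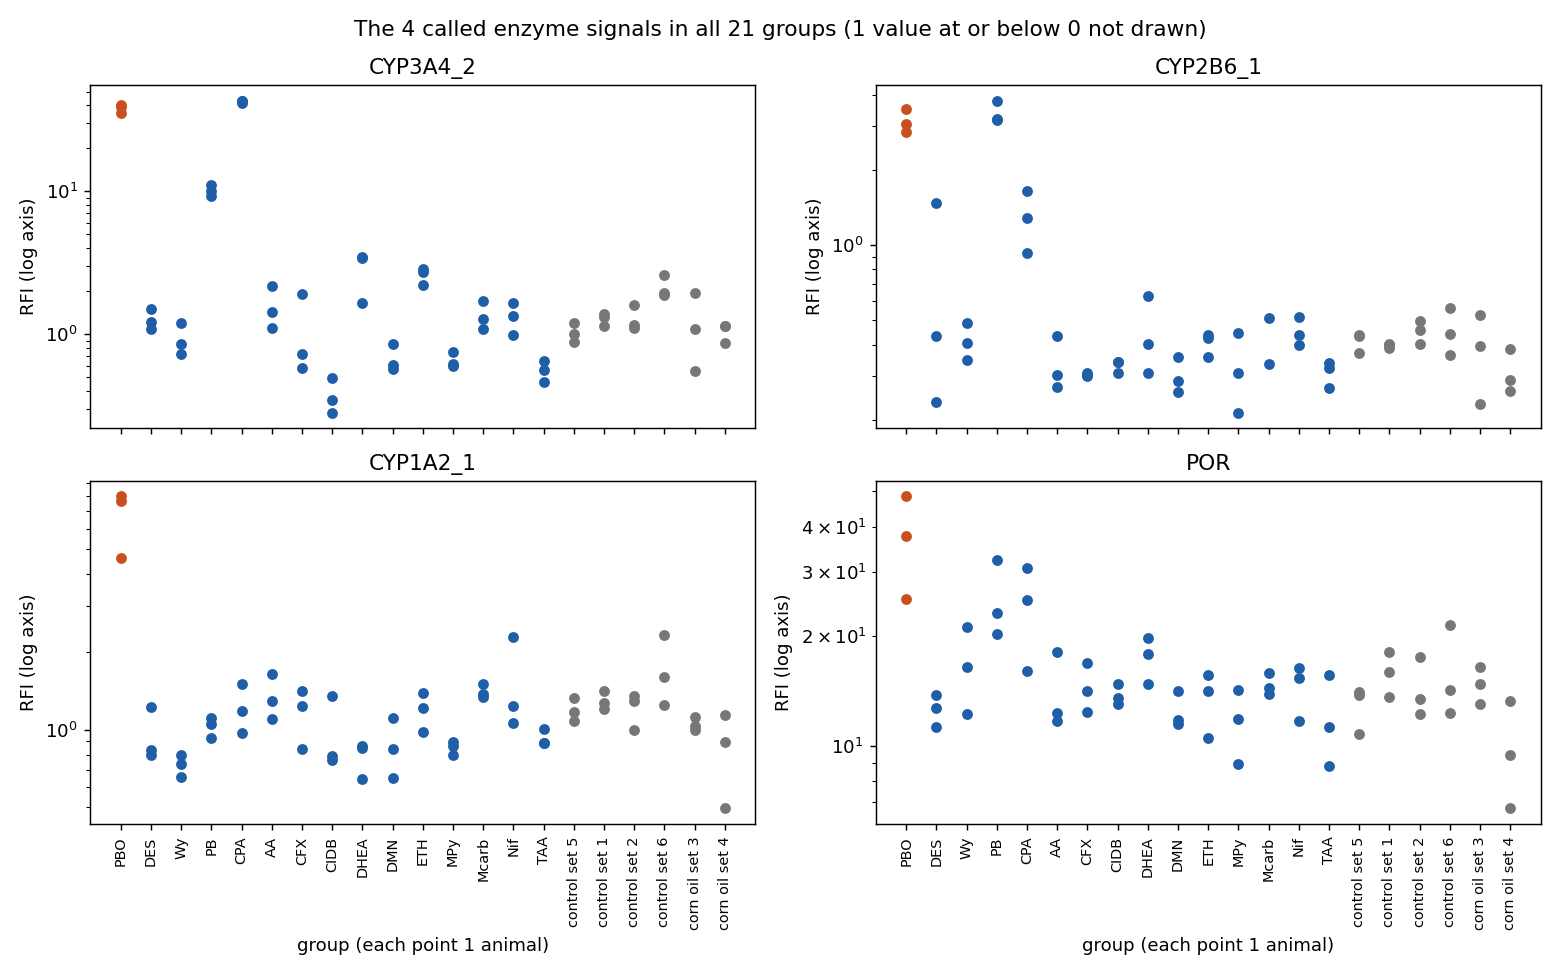
RFI (log axis) of CYP3A4_2, CYP2B6_1, CYP1A2_1 and POR in all 21 groups, each point being 1 animal (PBO orange, other compounds blue, vehicle controls grey). PBO lies near CPA for CYP3A4_2 and overlaps with PB for CYP2B6_1, whereas its CYP1A2_1 of 4.63 to 8.01 lies above every other animal.

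The comparison with DES and Wy needs no control animal and is matched for time. PBO differed from DES in 6 of 158 analytes (3.8%), of which 5 were higher (3.16%) and 1 lower (0.633%). It differed from Wy in 23 (14.6%), of which 21 were higher (13.3%) and 2 lower (1.27%). CYP3A4_2, CYP2B6_1, CYP1A2_1 and POR were higher than in either group. Against DES their log2 differences were 4.92 ± 0.32, 2.56 ± 0.33, 2.82 ± 0.26 and 1.52 ± 0.25 (SE, n = 3 and 3), with limma adjusted p from 1.31e-17 to 9.62e-06. Against Wy they were 5.40 ± 0.32, 2.94 ± 0.33, 3.18 ± 0.26 and 1.14 ± 0.25 (SE), with limma adjusted p from 3.24e-19 to 0.000755. Centring each animal moved the counts to 7 higher and 5 lower against DES. Quantile normalization moved them to 6 higher and 7 lower against DES and to 8 higher and 18 lower against Wy, and POR was then called against neither.

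Against DES the remaining calls were CDKN1B_P-S10, the phosphorylated cell cycle inhibitor p27, higher by 0.94 ± 0.27, and the cytokine-activated transcription factor STAT3, lower with a difference of -0.72 ± 0.22 (log2 scale, SE). Each lost its call in several fits, among them that of the 6 animals alone (limma adjusted p = 0.0845 and 0.389). When replicate numbers were fitted as blocks, also in the 6 animals alone, neither remained called (limma adjusted p = 0.243 and 0.712). CYP2E1_1 and ACTB were then called, and the 4 enzymes stayed. Against Wy the enzyme list gave 8 calls of 17, where 23 of all 158 analytes (14.6%) were called. Among the 8 were CYP2B6_3, higher by 3.34 ± 0.49, CYP2C8, higher by 1.82 ± 0.41, and CYP3A5, lower with a difference of -1.32 ± 0.18 (log2 scale, SE). In the Wy animals CYP2B6_3 read 16.8 to 27.4 and was the lowest of all 21 groups, and CYP3A5 read 1.47 to 1.58 and was the highest. Both RPS6 total antibodies were higher in PBO than in Wy, by 2.02 ± 0.63 for RPS6_1 and 1.61 ± 0.52 for RPS6_2 (SE), with limma adjusted p of 0.0251 and 0.0291. RPS6_1 lost its call under quantile normalization (0.86, limma adjusted p = 0.295). Calls were also lost without PBO animal 1 (RPS6_1) and without PBO animal 2, Wy animal 1 or Wy animal 3 (both antibodies).

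The 2 falls of the PBO livers concerned kinase signalling. MAPK3_P-T202/Y204 is the active form of ERK1, the kinase at the end of the growth factor cascade from RAF through MAP2K1 and MAP2K2. It read 2.00, 2.02 and 1.31 in the PBO animals and 2.82, 3.69 and 3.15 in set 5, with no overlap. The log2 fold change was -0.87 ± 0.24 (SE; limma adjusted p = 0.016). Against all 12 animals it was -0.82 (adjusted p = 0.00318 by limma), although the lowest of the other 9 controls read 1.87, within the PBO range. Against set 1 alone it was -0.79 (adjusted p = 0.0622), against set 2 alone -0.54 (adjusted p = 0.172) and without PBO animal 3 -0.67 (adjusted p = 0.097), all by limma and all short of the threshold. Relative to total MAPK3 the phosphorylated form differed by -0.64, with an interval of -1.42 to 0.14. DES and Wy animals read 2.12 to 2.57 and 1.33 to 1.52 for the same form, and PBO did not pass the test against either, with intervals of the log2 difference of -0.87 to 0.10 and -0.20 to 0.77.

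MAP2K2, the kinase directly above ERK, read 0.386, 0.471 and 0.375 in the PBO animals and 0.259, 0.314 and 0.293 in set 5. Its log2 fold change was 0.51 ± 0.13 (SE; limma adjusted p = 0.00667), 0.38 against all 12 animals (adjusted p = 0.00869 by limma) and 0.43 against set 2 (adjusted p = 0.0337 by limma). Against set 1 and set 6 alone it was not called. MAP2K2 kept its call in 11 of 18 alternatives, and lost it also under quantile normalization and in the 6 animals alone (limma adjusted p = 0.0797 and 0.272). MAP2K2 and MAPK3_P-T202/Y204 were the only called analytes among the 17 of the ERK cascade, where 10 of all 158 analytes (6.33%) were called. The median log2 fold change of the list was 0.09 against 0.15 over all analytes. ELK1, a transcription factor that ERK phosphorylates, read 2.29 to 2.66 in the PBO animals and 2.67 to 3.72 in set 5, without overlap but with an interval of the log2 difference of -1.06 to 0.23.

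RPS6_P-S235/S236, the form of ribosomal protein S6 made by kinases below mTOR and ERK, read 5.21, 3.71 and 1.39 in the PBO animals and 12.7, 8.16 and 12.6 in set 5. Its log2 fold change against set 5 was -1.87 ± 0.59 (SE; limma adjusted p = 0.0466). Set 5 was the highest of all 21 groups for this analyte, above set 6 by 2.68 ± 0.59 on the log2 scale (SE; limma adjusted p = 0.007). The direction of the PBO difference followed the choice of controls: it was -0.89 against all 12 animals (adjusted p = 0.353), -1.36 against set 2 (adjusted p = 0.166) and 0.81 against set 6 (adjusted p = 0.452), none of them past the threshold by limma. Without PBO animal 3 the difference from set 5 was -1.31 (limma adjusted p = 0.185). DES and Wy animals read 1.05 to 2.64 and 1.33 to 2.44, and the log2 differences of PBO from them were 0.79 and 0.85, with intervals of -0.41 to 1.98 and -0.35 to 2.05.

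**Figure D3:**
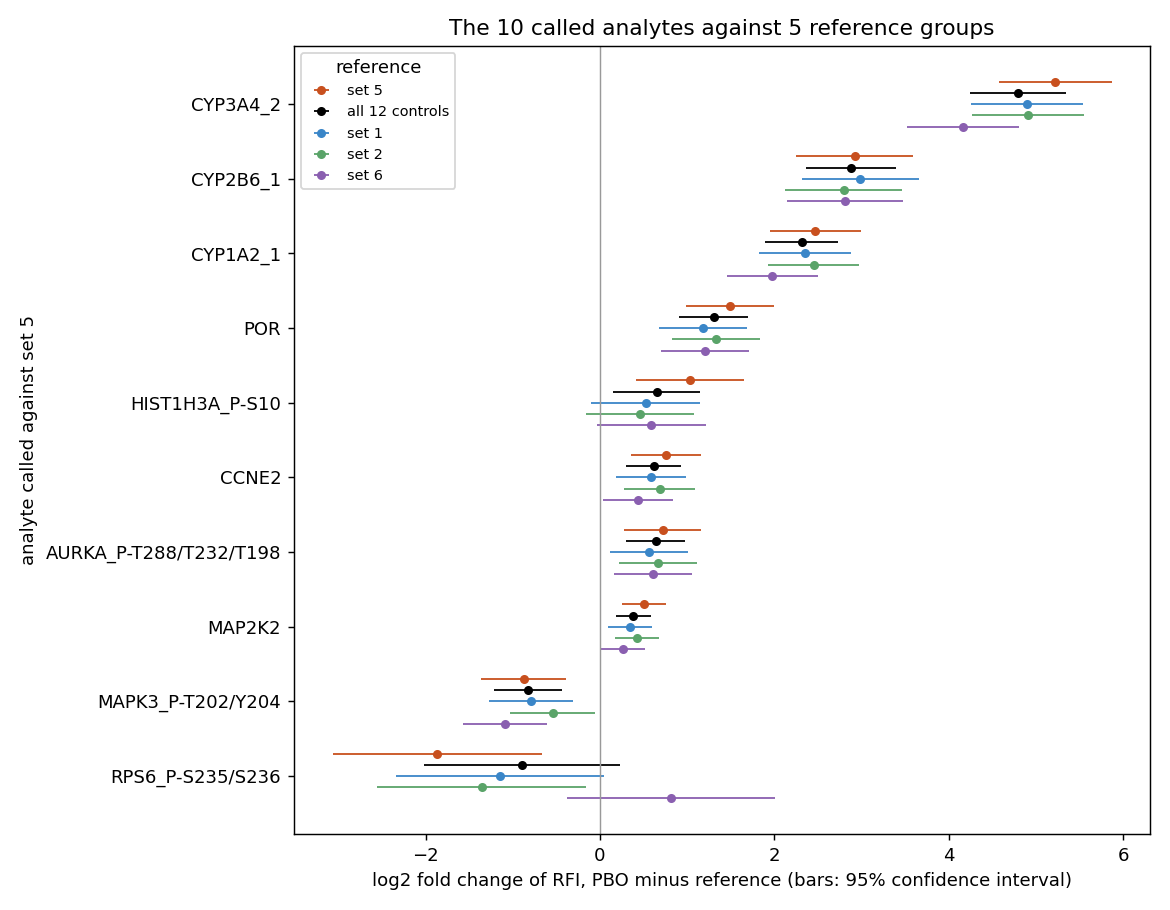
Log2 fold change of RFI with its 95% confidence interval for the 10 analytes called against set 5, with set 5, all 12 methylcellulose animals, set 1, set 2 or set 6 as the reference. The 4 enzyme signals stay right of 0 under every reference, whereas RPS6_P-S235/S236 runs from -1.87 against set 5 to 0.81 against set 6.

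Relative to total S6 the phosphorylated form was lower with either antibody against set 5 and against all 12 animals, which include set 5. These ratios were not fitted against set 1, set 2 or set 6 alone, and RPS6_2 was among the 40 dimmest analytes. The log2 ratio to RPS6_1 was -2.53, -2.87 and -3.76 in the PBO animals and -0.29, -0.54 and -0.76 in set 5. It differed by -2.52 ± 0.75 against set 5 (SE; limma adjusted p = 0.0139) and by -1.63 against all 12 animals (adjusted p = 0.0481 by limma). For RPS6_2 the differences were -2.82 ± 0.71 (SE; limma adjusted p = 0.00366) and -1.69 (adjusted p = 0.0402 by limma). Total S6 itself read 30.1, 27.1 and 18.8 in the PBO animals for RPS6_1, against 15.5, 11.9 and 21.3 in set 5, so that the groups overlapped. Without PBO animal 3 neither ratio stayed past the threshold, at -2.17 and -2.25 (limma adjusted p = 0.111 and 0.0569). Of the 17 analytes of AKT, mTOR and S6, only RPS6_P-S235/S236 was called, where 10 of all 158 analytes (6.33%) were called. The list's median log2 fold change was 0.13 against 0.15 over all analytes. PRKAA1_P-T172, the active form of the energy sensor AMPK, was called against all 12 animals at -0.63 (limma adjusted p = 0.025) and against no single set, and the difference from set 5 was -0.47 with an interval of -0.96 to 0.03.

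Of the 15 cell cycle and DNA damage analytes 2 rose, and of the 11 histone and chromatin analytes 1 rose, where 8 of all 158 analytes (5.06%) did. None of either list fell. CCNE2, the cyclin that starts DNA replication, read 0.321, 0.351 and 0.323 in the PBO animals and 0.175, 0.232 and 0.186 in set 5. The 3 PBO values were close to each other and above set 5, but 1 animal of the other sets read 0.367. The log2 fold change was 0.76 ± 0.20 (SE; limma adjusted p = 0.0118), and 0.68 against set 2 (adjusted p = 0.0337 by limma). It was not called against set 1 (0.58, adjusted p = 0.147) or set 6 (0.44, adjusted p = 0.242), nor without PBO animal 2, set 5 animal 7 or set 5 animal 9 (limma adjusted p = 0.0615, 0.0987 and 0.0533). AURKA_P-T288/T232/T198, the shared active site of the mitotic Aurora kinases, read 0.136, 0.148 and 0.120 in the PBO animals and 0.0816, 0.0958 and 0.0695 in set 5. It lay above all 12 controls by a narrow margin, the highest of the other 9 reading 0.119, and its log2 fold change was 0.72 ± 0.22 (SE; limma adjusted p = 0.0383). Against set 2 alone it was 0.67 and not called (adjusted p = 0.0724 by limma). The call was kept in 6 of 17 alternatives, and was also lost against set 1 or set 6 alone. Quantile normalization and the fit of the 6 animals alone did not call it either (limma adjusted p = 0.438 and 0.0799). HIST1H3A_P-S10, a histone mark of condensing mitotic chromosomes, read 0.139, 0.161 and 0.117 in the PBO animals and 0.0658, 0.0526 and 0.0881 in set 5, the lowest of the 21 groups. Its log2 fold change of 1.03 ± 0.31 (SE; limma adjusted p = 0.0341) was 0.65 against all 12 animals (adjusted p = 0.079) and 0.46 against set 2 (adjusted p = 0.435), and was not called there. HIST1H3A_P-S10 kept its call in 6 of 17 alternatives. For MKI67, the standard marker of cycling cells, the log2 difference was 0.37 with an interval of -0.15 to 0.88.

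These 3 signals were among the dimmest measured. They lay among the 40 dimmest analytes, with a median RFI over 63 animals of at most 0.255, and 0 of the other 7 called analytes did. These 40 had a median log2 fold change of 0.34 and the brighter 118 analytes a median of 0.11. The same gap was seen against all 12 animals, with 0.32 and 0.03, and the part of this gap in the 3 calls was not tested. When the 40 dimmest analytes were left out of the fit, 6 of the remaining 118 analytes were called, which were the 4 enzymes, MAP2K2 and MAPK3_P-T202/Y204.

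**Figure D4:**
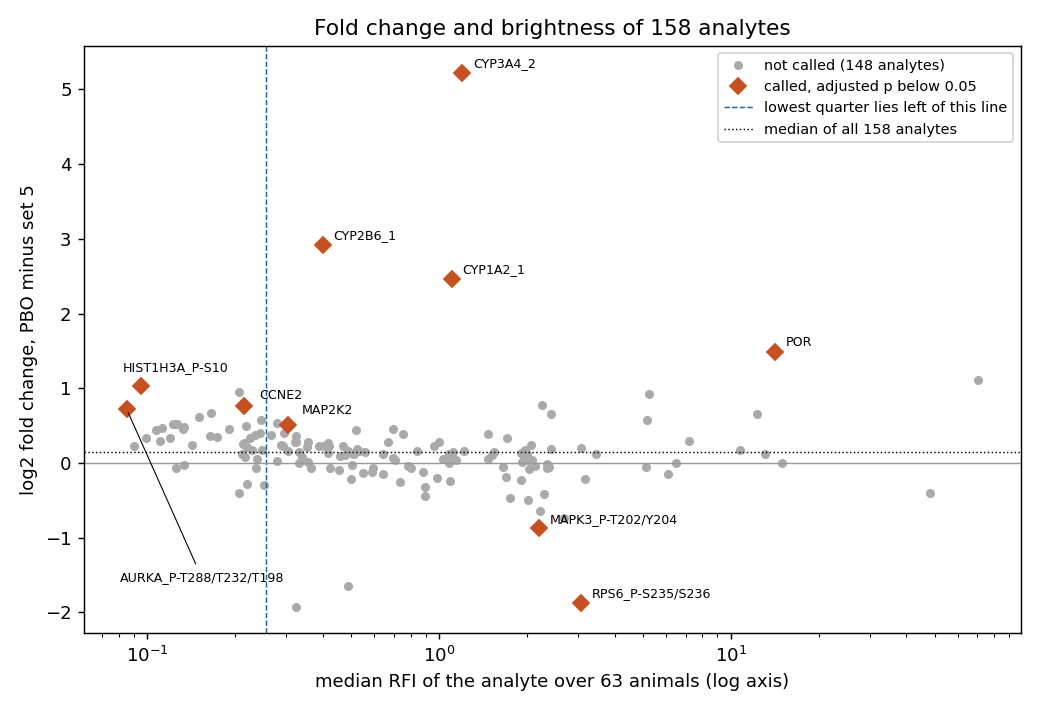
Log2 fold change of PBO minus set 5 plotted against the median RFI over 63 animals (log axis) for 158 analytes, with the 10 called analytes as diamonds. Called analytes left of the dashed line, at a median RFI of 0.255, are HIST1H3A_P-S10, AURKA_P-T288/T232/T198 and CCNE2, and most dim analytes lie above 0.

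The cell cycle inhibitor p27 had less of its S10-phosphorylated form relative to the total than in the methylcellulose controls. CDKN1B_P-S10, the form that leaves the nucleus, read 2.58, 2.57 and 1.94 in the PBO animals and 4.42, 3.43 and 3.18 in set 5. All 3 values lay below all 12 methylcellulose animals, though the lowest of those, at 2.586, nearly met the highest PBO animal, at 2.584. Against set 5 the log2 difference was -0.64 (interval -1.19 to -0.09, limma adjusted p = 0.192), and against all 12 animals it was -0.67 (adjusted p = 0.0301 by limma). Total CDKN1B, a dim analyte, read 0.137, 0.202 and 0.140 against 0.114, 0.134 and 0.0947 in set 5. The log2 ratio of CDKN1B_P-S10 to CDKN1B was 4.23, 3.67 and 3.80 in the PBO animals and 5.28, 4.68 and 5.07 in set 5, a difference of -1.11 ± 0.29 (SE; limma adjusted p = 0.00438). It stayed between -1.28 and -0.98 and past the threshold without any 1 of the 6 animals, and was -1.16 against all 12 animals. DES and Wy animals read 1.04 to 1.41 and 1.50 to 1.66 for CDKN1B_P-S10, below all PBO animals. Total CDKN1B read 0.108 to 0.174 and 0.102 to 0.132 in them. By its mean CDKN1B_P-S10, PBO ranked 10 of the 21 groups. The ratio was not fitted against DES or Wy. The ratio of CDKN1B_P-T187, the form marked for degradation, to total CDKN1B differed by -0.51 ± 0.18 (SE; limma adjusted p = 0.0491), with overlapping groups and -0.30 (adjusted p = 0.42 by limma) without PBO animal 3. In the fit of the 6 animals alone, CDKN1B_P-T187 itself differed by -0.04 and total CDKN1B by 0.47 on the log2 scale. PDK1_P-S241, phosphorylated at the site of the kinase that activates AKT, differed relative to PDK1 by -0.67 ± 0.20 (SE; limma adjusted p = 0.0139), and without PBO animal 3 by -0.58 (adjusted p = 0.111 by limma). Total PDK1, also a dim analyte, read 0.183 to 0.268 in the PBO animals and 0.120 to 0.161 in set 5. The part of the dim total proteins in these ratios was not tested.

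**Figure D5:**
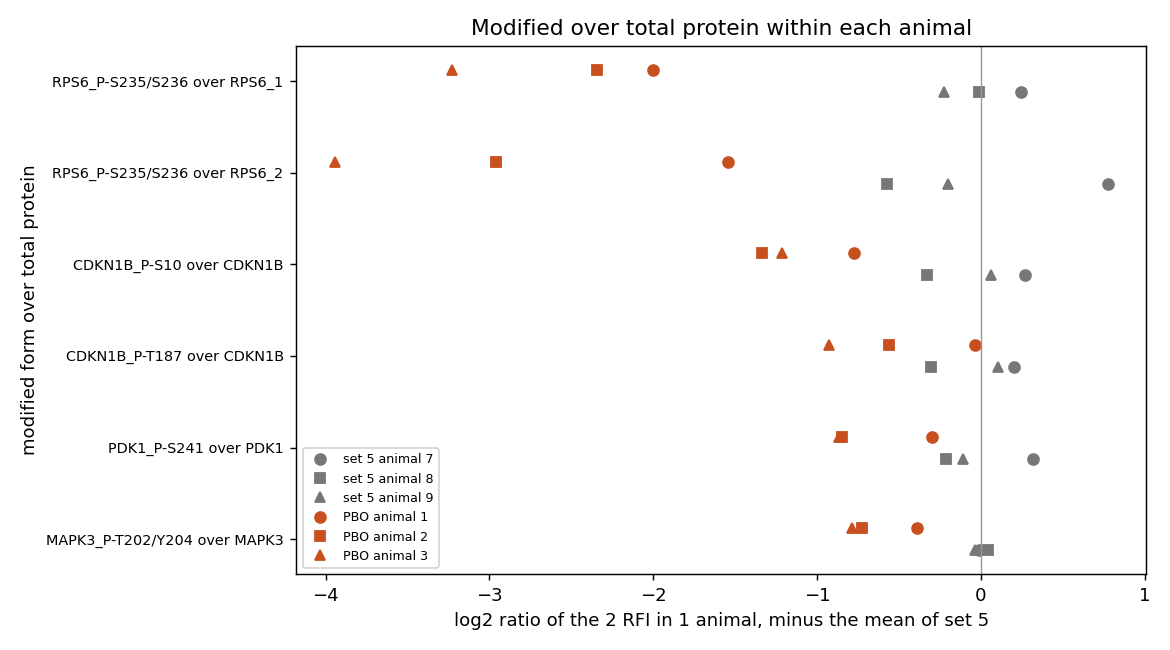
Log2 ratio of a modified form to its total protein within each animal, minus the mean of set 5, for the 3 PBO animals (orange) and the 3 set 5 animals (grey). All PBO animals lie left of all set 5 animals for S6, CDKN1B_P-S10, PDK1 and MAPK3, and overlap with them for CDKN1B_P-T187.

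Against all 12 methylcellulose animals 18 analytes were called (11.4%), 14 higher (8.86%) and 4 lower (2.53%), and they included 8 of the 10 called against set 5. The analytes added were CYP2B6_3, MET_P-Y1349, NFKBIA, CDKN1B, PDK1, PRKACA_P-T197 and SMAD2_P-S245/S250/S255, which were higher, and CYP2E1_1, CDKN1B_P-S10 and PRKAA1_P-T172, which were lower. For CYP2E1_1, PBO animals 1 and 2 read 0.582 and 0.737, within the 0.350 to 0.756 of the 12 controls, and animal 3 read 0.00448. A fit against all 12 animals without PBO animal 3 was not made. Of the 18, 8 were among the 40 dimmest. Ratios within an animal gave 16 calls of 60 (26.7%) against all 12 animals. NFKBIA, the inhibitor that holds NF-kappa-B in the cytoplasm, read 0.164 to 0.190 in the PBO animals and 0.114 to 0.139 in set 5. PRKACA_P-T197, the active catalytic subunit of protein kinase A, read 0.180 to 0.196 and 0.123 to 0.158. Both overlapped with set 6, which reached 0.165 for NFKBIA and 0.193 for PRKACA_P-T197. MET_P-Y1349, a phosphorylated form of the hepatocyte growth factor receptor, and the SMAD2 linker phosphorylation overlapped with set 5. Counting single animals, all 3 PBO values lay outside the range of set 5 for 34 analytes (21.5%; 29 higher, 18.4%, and 5 lower, 3.16%) and outside that of all 12 controls for 7 (4.43%).

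Other lists gave no call against set 5, where 10 of all 158 analytes (6.33%) were called. In the 11 JAK and STAT analytes the median log2 fold change was 0.05, in the 9 stress kinase analytes 0.17, in the 12 growth factor receptor analytes 0.32, in the 4 apoptosis analytes 0.01, in the 9 analytes of beta-catenin and glutamine synthetase 0.06 and in the 2 of NF-kappa-B 0.28, against 0.15 over all analytes. JUN, the stress-responsive transcription factor, read 0.339, 0.338 and 0.165 in the PBO animals and 0.210 to 0.262 in set 5, with an interval of the log2 difference of -0.29 to 0.64. STAT5A and STAT5A_P-Y694, which carry growth hormone signals, had intervals of -0.35 to 0.43 and -1.36 to 0.76. GLUL, glutamine synthetase of the hepatocytes next to the central vein, read 0.307 and 0.322 in PBO animals 1 and 3 and -1.98 in animal 2, where it is not above background and was treated as missing. In set 5 it read 1.29, 1.54 and 0.849, all above the PBO animals, and the log2 difference over the measured animals was -1.92 (interval -3.58 to -0.26, limma adjusted p = 0.192). GLUL was called in 1 of 18 alternatives, the fit of the 6 animals alone (limma adjusted p = 0.00107), resting on PBO animals 1 and 3.

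The hepatocyte factor HNF4A was measured in all PBO livers, at 1.90, 2.05 and 1.07, against 1.73 to 2.08 in set 5, and the log2 difference was -0.23 with an interval of -0.57 to 0.12. HNF4A was called against set 6 alone, and not against set 1, set 2 or all 12 methylcellulose animals. Against DES it was called after centring, after quantile normalization and without PBO animal 2, but not in the main fit. HNF4A, GLUL and the CYP analytes were the hepatocyte markers on the array, and no marker of bile duct, stellate, endothelial or macrophage cells considered here was among its analytes.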

How the data were processed

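The authors lysed liver tissue, printed the lysates on ZeptoMARK reverse-phase protein arrays, background-subtracted and array-normalized the spot signals, took weighted means of replicate spots, and deposited for each animal the fluorescence intensity (RFI, linear scale) of 158 analytes. They also deposited a matrix of log2 ratios to control medians with imputed missing values, which served only as an alternative input. Groups and control sets came from the labels. RFI at or below 0 (25 of 9954 values, 2 of them in PBO animals) was set to missing, and the rest log2 transformed without further scaling. Means of 21 groups over 63 animals were fitted with limma 3.58.1 (lmFit, eBayes, R 4.3.3). P-values were two-sided, adjusted by Benjamini-Hochberg over 158 analytes and called below 0.05. The fit was tested on simulated data. Confidence intervals are those of the fit, at 95%. Nothing states that animals shared litters or days. Arrays have no read depth. Each group mean rests on 3 animals, while the spread behind SE and intervals was estimated over all 63 animals of 21 groups.

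Members and lists were chosen with earlier results of these data known. Named were all analytes called against set 5 or against all 12 methylcellulose animals (pooled as 1 group), the enzyme list, all forms of RPS6, MAPK3, CDKN1B, STAT5A, GLUL and JUN, and the 5 largest rises and falls whose PBO animals lay outside set 5. STAT3, MKI67, HNF4A and other analytes outside this rule were chosen after their values were seen, as were the ratios within an animal, fitted over 60 pairs of analytes. Deviations from the group means correlated between PBO and DES animals of the same replicate number (Pearson 0.174, 0.419 and 0.302 for numbers 1, 2 and 3 over analytes). Deviations from a mean of 3 animals depend on each other, so these values cannot show that the numbers pair the animals. The fit with numbers as blocks is an alternative, given where it changed a call. The labels do not say what the numbers mark. Promoter windows are from RefSeq (GRCr8).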

Additional observations from a re-analysis of the deposited data

How the results depend on the processing

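Of 42 alternatives to the 3 main comparisons, 32 left the count of calls within 1.5 times. Against set 5 (10 calls) the count was 6 without the 40 dimmest analytes, 18 with all 12 controls and 4 with set 1 as the reference, and ran from 5 to 14 when single animals were left out. Against DES (6 calls) it was 12 after centring and 13 after quantile normalization, and 4 to 7 without single animals. Against Wy (23 calls) it was 15 with the replicate block, fitted in the 6 animals alone, and 12 to 31 without single animals. The animals whose loss moved a count by over 1.5 times were PBO animal 2 (6) and set 5 animal 7 (5) against set 5, and PBO animal 2 (12) and Wy animal 1 (12) against Wy. Ratios within an animal (10 calls) gave 16 against all 12 controls and 5 to 11 without single animals, the lowest without PBO animal 3. The single call of set 5 against set 6 gave 0 to 1, being lost without set 5 animal 7 or 9. Signs turned for RPS6_P-S235/S236 against set 6 (0.81), HIST1H3A_P-S10 in the series matrix (-0.52) and, against Wy after quantile normalization, ERBB2_P-Y877 (-0.086) and POR (-0.19), and the cause was not tested.

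In the matrix 7 analytes were called, including 4 of the 10, which were CYP3A4_2, CYP2B6_1, CYP1A2_1 and POR. No paired analysis was possible because PBO and set 5 share no replicate number. With the replicate block, fitted in the animals of the comparison alone, PBO against DES gave 6 calls, 4 of them shared with the main fit. For PBO and Wy, same-numbered deviations correlated at -0.03, -0.17 and -0.10. Detection above background was not tested for dim analytes.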
